A study of Morchella importuna with 4 samples.

Results

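The genes that take up sulfate and reduce it to sulfide in the morel *Morchella importuna* were followed in the sclerotial and the hyphal area of plates at sclerotial initiation, the stage at which the resting bodies called sclerotia start to form. The members were all genes whose annotation names a sulfate permease or transporter, ATP sulfurylase (sulfate adenylyltransferase), adenylylsulfate kinase, phosphoadenosine phosphosulfate reductase or sulfite reductase, and genes of thiosulfate were to be dropped. The rule read the gene descriptions and no measured value, but it was set with earlier results of these data known. It gave 6 of the 11599 genes of the table, and 0 genes had to be dropped for thiosulfate. The 6 genes were the sulfate permeases JGI605116 and JGI278143, the ATP sulfurylase JGI538558, the adenylylsulfate kinase JGI490397, the phosphoadenosine phosphosulfate reductase JGI538967 and the sulfite reductase JGI576141. Each number is the gene's identifier in the genome annotation of the Joint Genome Institute (JGI) that the authors' table uses, where the name of the first permease ends in ‘605116’.

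The fungus was a single strain with no added treatment, grown in the dark on potato dextrose agar (PDA) at 20 °C for 4 days. SII is the area where sclerotia form, up to 2 cm from the centre of the plate, where cells were swollen and bead-like, and SIO is the hyphal area outside it, towards the margin. Each area was sampled in 2 libraries, and each library pooled mycelia from 2 plates. The study calls the libraries of an area biological repeats. The study describes both areas as parts of the same plate. The labels do not say whether an SII and an SIO library came from the same plates. No marker genes of the areas were fixed by which the dissection could be checked.

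Fungi import sulfate through permeases of the plasma membrane. Inside the cell ATP sulfurylase joins sulfate to ATP, adenylylsulfate kinase adds a phosphate to the product, phosphoadenosine phosphosulfate reductase releases sulfite with electrons from thioredoxin, and sulfite reductase, a siroheme enzyme fed by NADPH, makes sulfide. Sulfide is then built into homocysteine or cysteine, and from these into methionine, S-adenosylmethionine and glutathione. In the model moulds *Neurospora crassa* and *Aspergillus nidulans* this pathway is known to be repressed while sulfur amino acids are ample and to be switched on by a bZIP transcription factor, CYS3 or MetR, when they are scarce.

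Expression was given as FPKM (fragments per kilobase of exon, scaled to the size of the library), a level corrected for gene length, so that levels can be compared between genes. The recovered depth was 24841181 and 23108142 reads in SII and 27992918 and 27579489 reads in SIO (replicates 1 and 2). Fold changes were taken on the scale of log2(FPKM + 1), as SII minus SIO, and tested with limma in the 8906 genes that reached an FPKM of 1 in 2 or more libraries. A gene was called when its adjusted p (Benjamini-Hochberg, over all genes tested) was under 0.01 and its log2 fold change was 1 or more in size. Of the genes tested, 1084 (12.2%) were called lower in SII and 914 (10.3%) were called higher. The median log2 fold change was −0.11. With median-ratio scaling the split was 739 lower and 1010 higher. The log2 ratio of the mean SII to the mean SIO scaling factor was −0.12, which raised SII values against SIO. The SIO libraries were closer to each other (R2 of log2(FPKM + 1) across the tested genes, 0.989) than the SII libraries were (0.908). SII replicate 2 stood nearer to the SIO libraries (R2 0.655 and 0.662) than SII replicate 1 did (0.531 and 0.530). These R2 values are across genes, and genes are no independent replicates.

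All 6 members had lower FPKM in SII than in SIO, from uptake to the making of sulfide. Each passed the filter on low values. In each both SII libraries lay below both SIO libraries, a pattern found in 43.9% of the tested genes. JGI605116 was under an FPKM of 1 in both SII libraries and passed only through its SIO values. For this gene the filter fixed the non-overlap and its direction in advance, so they are no support. Of the 6 members, 5 were called lower in SII and 0 were called higher, against the background of 12.2% lower. None was higher at an unadjusted p under 0.05 or by limma-voom on the recovered reads, because all 6 fold changes were below 0. The sulfite reductase was the member not called. The median log2 fold change of the members was −2.71. The 5th percentile of all tested genes was −2.36. In bulk tissue fewer cells of a type and less RNA per cell cannot be told apart.

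**Figure D1:**
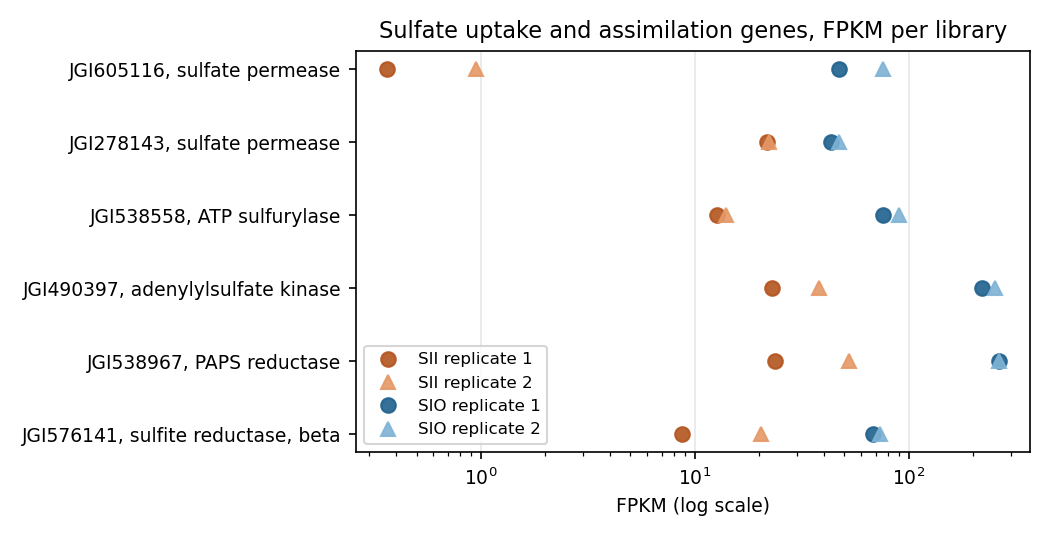
FPKM of each sulfate gene (rows, in pathway order) in the 4 libraries on a log axis, with 1 symbol per library. The SII symbols lie left of the SIO symbols in every row, by the widest gap for JGI605116 and the narrowest for JGI278143.

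The summed FPKM of the 6 genes was 90.1 in SII replicate 1 and 148 in SII replicate 2. It was 718 and 802 in SIO replicates 1 and 2, so that the lowest SIO sum lay well above the highest SII sum. The means were 119 ± 40.8 in SII and 760 ± 59.2 in SIO (SD, n = 2 each), a ratio of 6.39. As a share of all recovered reads the members took 0.0168% and 0.0265% in SII and 0.115% and 0.131% in SIO. An exact permutation test of such a sum, two-sided, gave p = 0.333, the smallest that 2 libraries against 2 can give. Leaving out 1 library at a time moved the ratio of the sums between 5.15 (without SII replicate 1) and 8.44 (without SII replicate 2).

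**Figure D2:**
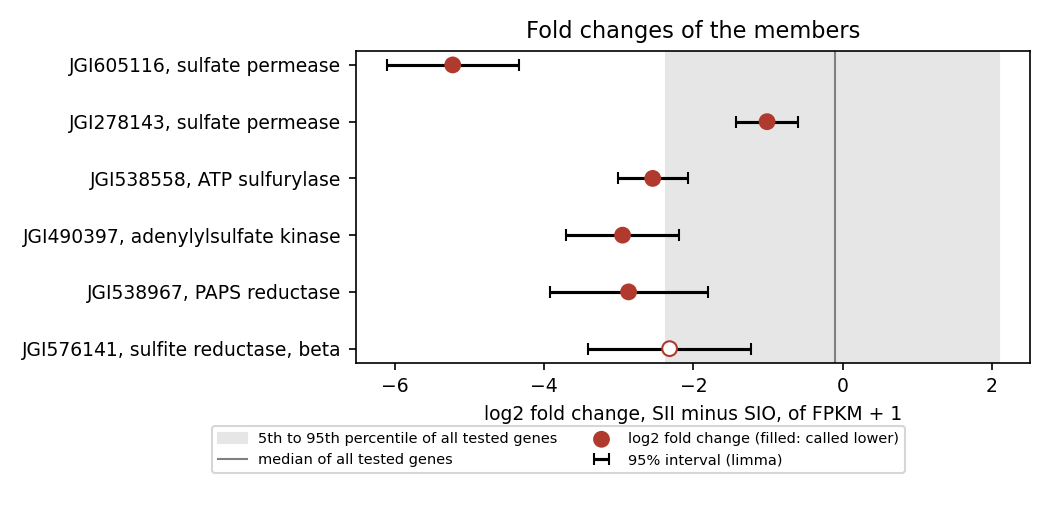
The log2 fold changes (SII minus SIO, of FPKM + 1) of the sulfate genes with their 95% intervals from limma, filled where the gene was called lower. The grey band holds the middle of all tested genes and starts at their 5th percentile, −2.36. JGI605116 at −5.23 lies far outside it, while JGI278143 at −1.01 lies inside it.

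The number of members called rested on both SIO libraries. Without SII replicate 1 all 6 were called lower (background 21.6%), and so they were without SII replicate 2 (background 24.0%). Without SIO replicate 1 only JGI605116 kept its call, and without SIO replicate 2 none of the 6 did. Without these SIO libraries 3 genes (0.0337%) and 2 genes (0.0225%) of the 8906 tested were called lower. The spread within an area then came from the SII pair alone, and the lone SIO library was assumed to vary like it. Without the filter on low values 0 members were called, where the background was also 0.00%. With median-ratio scaling (background 8.30%) and with limma-voom (8.07%) 3 members were called lower, the permease JGI605116, the ATP sulfurylase and the kinase. With the replicate number as a block, 5 were called (background 12.4%).

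The largest difference of any member was in a gene of uptake. The sulfate permease JGI605116 (gene_5588, annotated by similarity to a putative sulfate permease of *Schizosaccharomyces pombe*) was nearly silent in the sclerotial area and well expressed in the hyphal area. Its FPKM was 0.362 in SII replicate 1, 0.943 in SII replicate 2, 47.4 in SIO replicate 1 and 75.7 in SIO replicate 2. These levels rested on 26 and 63 reads in SII and on 3827 and 6022 reads in SIO, and the lowest SIO value was 50.2 times the highest SII value. The means were 0.653 ± 0.411 in SII and 61.5 ± 20.0 in SIO (SD, n = 2 each), a ratio of 94.2. On the log2(FPKM + 1) scale, which shrinks the change of a low gene, the fold change was −5.23 (SE 0.33, 95% interval −6.11 to −4.34, limma adjusted p = 0.00237). Only 4 of the 8906 tested genes had a lower value, so that JGI605116 ranked 5. The direction of this change was fixed in advance by the filter (above). On recovered reads limma-voom gave −6.57 (SE 0.59, adjusted p = 0.00377). The authors' mean scaled read counts were 47.7 for SII and 3950 for SIO. Over all genes with recovered reads, 35.4% of the summed SIO mean was not accounted for by the SIO libraries used here, so this SIO value is not their mean alone.

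JGI605116 also varied between the hyphal libraries. SIO replicate 2 was 1.60-fold above SIO replicate 1, a larger difference between the SIO replicates than in nearly every other gene: it was exceeded in 1.64% of the tested genes. The difference between the areas was many times larger than this.

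The other sulfate permease, JGI278143 (gene_9416), was expressed in both areas. Its FPKM was 21.8 and 22.1 in SII and 43.4 and 47.2 in SIO, from 1466 and 1386 reads and from 3289 and 3530 reads. The areas did not overlap, and the SII libraries were almost equal. The means were 21.9 ± 0.240 and 45.3 ± 2.75 (SD, n = 2 each), a ratio of 2.07. The log2 fold change of −1.01 (SE 0.16, 95% interval −1.43 to −0.59, limma adjusted p = 0.00950) passed both limits of the call narrowly. The call was lost under 9 of the 14 alternatives, among them median-ratio scaling (log2 fold change −0.90) and limma-voom (−0.93), while the fold change stayed below 0 in the 8 alternatives that could move it.

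**Figure D3:**
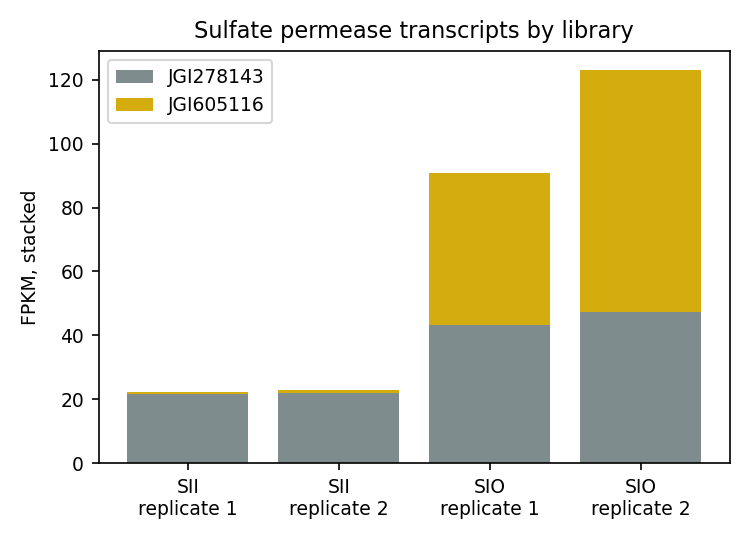
FPKM of the sulfate permeases JGI278143 (grey) and JGI605116 (yellow), stacked, in each library. In SII nearly the whole bar is JGI278143, and in SIO JGI605116 makes up 52.2% and 61.6% of a bar that is taller in both libraries.

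The balance between the permeases thus differed between the areas. JGI605116 made up 1.64% and 4.09% of the permease FPKM in SII and 52.2% and 61.6% in SIO. In SII the level of JGI278143 was 60.0 and 23.4 times that of JGI605116. In SIO JGI605116 was the higher of the pair, by 1.09-fold in replicate 1 and 1.60-fold in replicate 2. The summed permease FPKM was 22.1 and 23.0 in SII and 90.7 and 123 in SIO, a ratio of means of 4.73. The two-sided exact permutation p of the sum and of the share was 0.333, the smallest possible.

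The enzymes that activate sulfate fell together. ATP sulfurylase, JGI538558 (gene_10381), which commits sulfate to assimilation, had an FPKM of 12.7 and 14.0 in SII and 76.0 and 89.6 in SIO. The reads were 725 and 747 in SII and 4905 and 5695 in SIO, and both SII libraries lay at about the same low level. The means were 13.3 ± 0.956 and 82.8 ± 9.61 (SD, n = 2 each), a ratio of 6.21, and the log2 fold change was −2.55 (SE 0.18, 95% interval −3.01 to −2.08, limma adjusted p = 0.00263).

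Adenylylsulfate kinase, JGI490397 (gene_8543), makes phosphoadenosine phosphosulfate, the sulfate donor that the next enzyme reduces. Its FPKM was 22.9 and 38.0 in SII and 219 and 252 in SIO, from 349 and 540 reads and from 3758 and 4264 reads. The means were 30.4 ± 10.7 and 235 ± 23.5 (SD, n = 2 each). Their ratio was 7.73. The log2 fold change was −2.95 (SE 0.28, 95% interval −3.71 to −2.19, limma adjusted p = 0.00417). JGI538558 and JGI490397 kept their calls in 11 of the 14 alternatives and lost them without either SIO replicate and without the filter on low values.

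On the log2(FPKM + 1) scale the reductases were the members that differed most between the SII libraries. Phosphoadenosine phosphosulfate reductase, JGI538967 (gene_11076), had an FPKM of 23.7 in SII replicate 1 and 52.4 in SII replicate 2, from 602 and 1237 reads. In SIO it stood at 264 in both libraries, from 7554 and 7438 reads. The means were 38.0 ± 20.2 and 264 ± 0.0705 (SD, n = 2 each), a ratio of 6.95, and the log2 fold change was −2.87 (SE 0.40, 95% interval −3.93 to −1.81, limma adjusted p = 0.00758). This call was also lost by a small margin with median-ratio scaling (adjusted p = 0.0102) and with limma-voom (adjusted p = 0.0105).

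The last enzyme, JGI576141 (gene_8822), is described in the table by a thiamin diphosphate-binding fold and, from its closest database entry, as the hemoprotein beta-component of sulfite reductase. Its FPKM was 8.69 and 20.3 in SII and 68.2 and 73.1 in SIO, from 995 and 2162 reads and from 8802 and 9288 reads. The means were 14.5 ± 8.19 and 70.7 ± 3.44 (SD, n = 2 each), a ratio of 4.88. The log2 fold change was −2.32 (SE 0.41, 95% interval −3.42 to −1.22). The limma adjusted p of 0.0128 missed the limit of 0.01, and the gene was not called. No other member was annotated to sulfite reductase, so any further component of this enzyme was not followed.

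The order of levels along the pathway differed between the areas. In SIO the highest mean FPKM was that of JGI538967 (264), followed by JGI490397 (235), JGI538558 (82.8), JGI576141 (70.7), JGI605116 (61.5) and JGI278143 (45.3). Of the neighbours in this order JGI576141 and JGI605116 overlapped in their libraries, and JGI605116 and JGI278143 differed by less than the SD of JGI605116 (20.0). In SII JGI538967 (38.0) and JGI490397 (30.4) led again, with overlapping libraries. JGI278143 (21.9) came next, its libraries just under the lower library of each of these. JGI576141 (14.5) and JGI538558 (13.3) overlapped, and JGI605116 (0.653) came last, below every other member in both libraries. With 2 libraries per area these orders are a description.

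The sclerotial libraries did not stand equally far from the hyphal ones. As a percentage of the SIO mean, SII replicates 1 and 2 had 0.589% and 1.53% of the FPKM of JGI605116, 15.3% and 16.9% of JGI538558, 9.72% and 16.2% of JGI490397, 8.98% and 19.8% of JGI538967, 12.3% and 28.7% of JGI576141, and 48.0% and 48.8% of JGI278143. SII replicate 2 was thus the higher of the SII pair in 6 of 6 members. The same held for 48.0% of all tested genes and for 68.2% of the 3911 genes with both SII libraries below both SIO libraries. SII replicate 2 was also the SII library nearer to SIO over all tested genes (above), and its part in the members' spread was not tested. The difference between the SII replicates was exceeded in 9.27% of the tested genes for JGI576141 and in 9.68% for JGI538967. For JGI278143 it was exceeded in 96.6%.

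**Figure D4:**
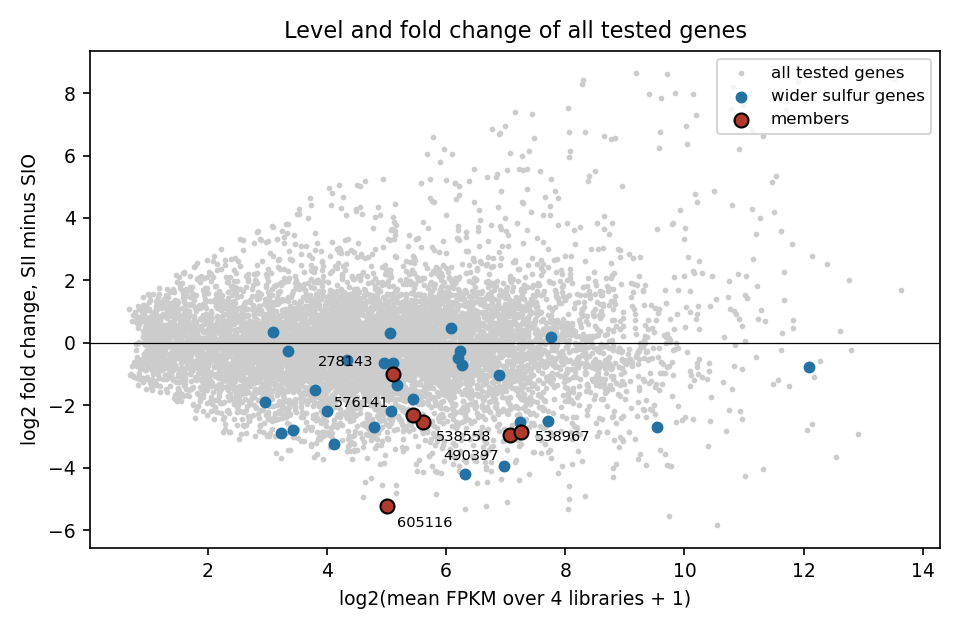
Log2 fold change (SII minus SIO) against log2 of the mean FPKM over the 4 libraries + 1 for all tested genes (grey), the sulfate genes (red, with JGI numbers) and the wider sulfur genes (blue). All 6 members lie below 0, and JGI605116 at −5.23 lies at the lower edge of the cloud.

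Beyond the pathway itself, 28 further genes were collected by wording of sulfur metabolism in their descriptions, and all were tested. The counts and the median below include JGI533191, which matched by a domain name and whose closest database entry is an ATP citrate lyase subunit. Of these, 6 were called lower in SII (21.4%, against the background of 12.2%) and 0 were called higher. At an unadjusted p under 0.05, 21 of the 28 (75.0%) were lower and 0 higher, where 33.1% of all tested genes were lower and 25.4% higher at that limit. In this set limma-voom called 4 lower and 0 higher, where it called 8.07% of all tested genes lower. The log2 fold change was below 0 in 24 of the 28 (85.7%), as in 54.2% of all tested genes, and its median was −1.44. As with the members, these calls rested on both SIO libraries. Without either SIO replicate hardly any tested gene was called lower (above).

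**Figure D5:**
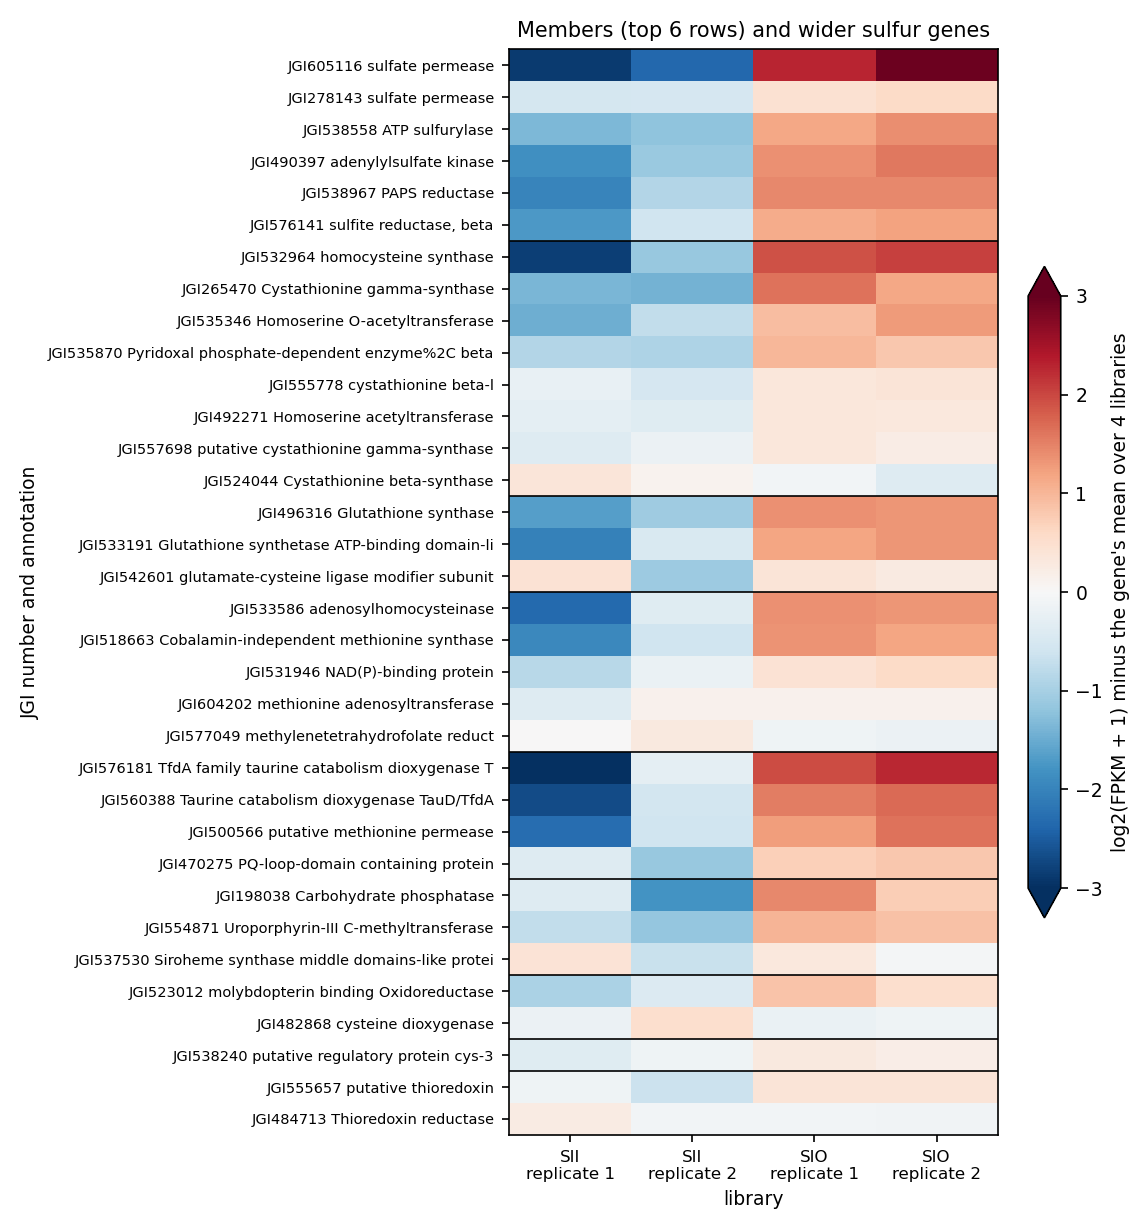
Colours give log2(FPKM + 1) minus the gene's mean over the 4 libraries (blue low, red high, colour scale from −3 to 3) for the sulfate genes (top 6 rows) and the 28 wider sulfur genes, with lines between the lists. Most rows are blue in SII and red in SIO, and several rows are paler in SII replicate 2 than in SII replicate 1.

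The genes that build sulfide into amino acids held 4 of these 6 calls, in a list of 8 with a median log2 fold change of −1.27. Homocysteine synthase, JGI532964, which joins sulfide to O-acetylhomoserine, had an FPKM of 7.39 and 25.7 in SII and 222 and 243 in SIO. Its means were 16.6 ± 13.0 and 233 ± 14.3 (SD, n = 2 each), and its log2 fold change was −3.96 (SE 0.58, limma adjusted p = 0.00839). Its call was lost with median-ratio scaling and with limma-voom, and its fold change ranged from −4.80 to −3.13 as libraries were left out.

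Homoserine O-acetyltransferase, JGI535346, makes the acceptor for that reaction. It had 8.25 and 14.4 FPKM in SII and 47.3 and 61.1 in SIO (log2 fold change −2.20, SE 0.32, limma adjusted p = 0.00818), and its call was lost with median-ratio and quantile scaling and with limma-voom. A further homoserine O-acetyltransferase, JGI492271, had 26.3 and 25.2 FPKM in SII and 41.5 and 40.5 in SIO. Its log2 fold change was −0.65 (limma adjusted p = 0.0256, not called). Cystathionine gamma-synthase, JGI265470, links cysteine sulfur to the homoserine skeleton. It had 1.76 and 1.64 FPKM in SII and 20.8 and 15.0 in SIO (log2 fold change −2.79, SE 0.23, limma adjusted p = 0.00344). A putative cystathionine gamma-synthase, JGI557698, had 14.1 and 16.6 FPKM in SII and 24.0 and 22.1 in SIO. Its log2 fold change was −0.56 (limma adjusted p = 0.0612, not called). The 4th call was JGI535870, named for completeness and annotated as cysteine synthase A, with means of 18.3 ± 0.451 and 66.9 ± 5.90 FPKM (SD, n = 2 each, log2 fold change −1.81, SE 0.16, adjusted p = 0.00382). Cystathionine beta-synthase, JGI524044, which carries sulfur from homocysteine towards cysteine, was the only member of the list with a fold change above 0 (0.47, adjusted p = 0.104, not called). In the list of 8 limma-voom called 2 lower and 0 higher, where it called 8.07% of all tested genes lower. The calls of this list also rested on both SIO libraries.

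Of the 5 genes of the methionine cycle (median log2 fold change −1.02), limma and limma-voom called 0 in either direction, and 3 were lower and 0 higher at an unadjusted p under 0.05 (33.1% and 25.4% over all tested genes). Adenosylhomocysteinase, JGI533586, which returns homocysteine to the cycle, was the most abundant of them. Its FPKM was 95.0 and 374 in SII and 1266 and 1221 in SIO (log2 fold change −2.71, limma adjusted p = 0.0302, −3.70 without SII replicate 2 and −1.73 without SII replicate 1). Methionine synthase, JGI518663, had 26.6 and 69.5 FPKM in SII and 268 and 239 in SIO (−2.53, adjusted p = 0.0149, −3.20 and −1.85 without the same libraries). In both genes SII replicate 1 was far below SII replicate 2, and both SII libraries lay below SIO, as in 43.9% of the tested genes. Methionine adenosyltransferase, JGI604202, which makes S-adenosylmethionine, was at 56.4 and 80.3 FPKM in SII and 81.0 and 80.4 in SIO (−0.26, adjusted p = 0.370).

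Of the 4 genes for organic sulfur sources (median −3.06), limma and limma-voom called 0 in either direction, and all 4 were lower at an unadjusted p under 0.05, as were 33.1% of all tested genes. The SII libraries lay far apart in 3 of them. The TauD/TfdA dioxygenase JGI576181, of the family that releases sulfite from sulfonates such as taurine, had an FPKM of 1.19 in SII replicate 1 and 26.3 in SII replicate 2, from 33 and 680 reads, and of 128 and 159 in SIO. Its log2 fold change was −4.22 (SE 1.23, limma adjusted p = 0.0460), and it ranged from −6.04 without SII replicate 2 to −2.40 without SII replicate 1. A similar gene, JGI560388, had 0.560 and 5.81 FPKM in SII and 28.0 and 31.4 in SIO (adjusted p = 0.0237). The putative methionine permease JGI500566 had 0.209 and 2.90 in SII and 13.2 and 17.2 in SIO (adjusted p = 0.0192). In each of these genes both SII libraries lay below both SIO libraries, a pattern found in 43.9% of the tested genes.

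Among the partners of the reductases, 1 of 3 genes for siroheme and nucleotide by-products was called lower (median −1.90, background 12.2%). Of 2 thioredoxin system genes 0 were called (median −0.29, 0 by limma-voom). At an unadjusted p under 0.05, 1 of these was lower and 0 higher (33.1% and 25.4% over all tested genes). Lists of 3 and 2 genes are too short to be set against these shares. Uroporphyrin-III C-methyltransferase, JGI554871, which starts siroheme synthesis for sulfite reductase, was called lower. It had 2.80 and 1.84 FPKM in SII and 11.7 and 10.7 in SIO (log2 fold change −1.90, SE 0.23, limma adjusted p = 0.00594). The siroheme synthase domain gene JGI537530 overlapped between the areas and was not called. Its FPKM was 12.0 and 5.14 in SII and 11.3 and 8.47 in SIO (−0.27, limma adjusted p = 0.625). The bisphosphate nucleotidase-like gene JGI198038, of the family that clears the nucleotide left after sulfate reduction, had 7.92 and 2.37 FPKM in SII and 31.1 and 18.7 in SIO (−2.20, adjusted p = 0.0310). The abundant thioredoxin JGI555657, of the family that feeds electrons to phosphoadenosine phosphosulfate reductase, had 3830 and 2688 FPKM in SII and 5424 and 5466 in SIO (−0.76, adjusted p = 0.0734). Thioredoxin reductase, JGI484713, had a fold change of 0.17 (adjusted p = 0.459). Neither of these was called.

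Of 3 genes matched to glutathione synthesis 1 was called lower, where 12.2% of all tested genes were. Glutathione synthase, JGI496316, which completes the cell's main thiol, was this gene, with 47.7 and 46.3 FPKM in SIO and 5.01 and 7.99 in SII (log2 fold change −2.71, SE 0.26, limma adjusted p = 0.00409). The same list held JGI533191, which matched by the name of an ATP-binding domain but whose closest database entry is an ATP citrate lyase subunit, an enzyme of acetyl-CoA supply. It was not called (−2.51, adjusted p = 0.0211), and its value is also the median of this list. The remaining gene, JGI542601, annotated as a glutamate-cysteine ligase modifier subunit, was at −0.65 (limma adjusted p = 0.358, not called). Sulfite oxidase, JGI523012, which removes sulfite, had 15.8 and 23.4 FPKM in SII and 57.5 and 44.7 in SIO (−1.35, adjusted p = 0.0164). Cysteine dioxygenase, JGI482868, which starts the breakdown of cysteine, had a fold change of 0.33 (adjusted p = 0.375), so that neither of the 2 genes listed for sulfite and cysteine oxidation was called, and limma-voom also called 0. The gene annotated as a putative cys-3 regulator, JGI538240, differed less than any called member: its FPKM was 55.7 and 65.6 in SII and 87.5 and 82.0 in SIO (−0.48, SE 0.16, adjusted p = 0.0663).

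Genes whose descriptions name transport of other inorganic nutrients or of a phosphate compound were set beside the sulfate permeases. Of 7 such genes 6 were tested, and 0 were called lower and 1 higher in SII, where limma-voom also gave 0 and 1, and 3 were lower and 2 higher at an unadjusted p under 0.05 (33.1% and 25.4% over all tested genes). The gene called higher was JGI533105, with 256 and 252 FPKM in SII and 73.1 and 71.9 in SIO (log2 fold change 1.79, SE 0.14, limma adjusted p = 0.00300). Its description reads inorganic phosphate transport PHO88, and whether it is itself a carrier was not tested. The most abundant was the ammonium transporter JGI26246, with 395 and 684 FPKM in SII and 1005 and 1052 in SIO (−0.98, adjusted p = 0.0543). The nitrate transporter JGI488573 had 33.3 and 120 FPKM in SII and 442 and 500 in SIO (−2.87, adjusted p = 0.0215, −3.78 without SII replicate 2 and −1.96 without SII replicate 1). A further ammonium transporter, JGI570386, had 178 and 346 FPKM in SII and 880 and 974 in SIO (−1.90, adjusted p = 0.0147), a larger change than that of the permease JGI278143. With the replicate number as a block, JGI488573 (adjusted p = 0.00779) and JGI570386 (adjusted p = 0.00839) were called lower, and JGI278143 was not (adjusted p = 0.0185). A phosphate transporter, JGI606759, had 179 and 182 FPKM in SII and 64.8 and 95.0 in SIO (1.19, adjusted p = 0.0154). The phosphate permease JGI541165 was at −0.31 (limma adjusted p = 0.194). The gene not tested, JGI476477, is annotated as a triose-phosphate transporter. The fold changes of the tested genes in this list thus lay on both sides of 0. Whether the permeases differ from the other carriers was not tested.

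The pattern of JGI605116 over the 4 libraries was closest to those of genes outside sulfur metabolism. Likeness was measured as the distance between log2(FPKM + 1) profiles, each centred on its mean, over the 3755 tested genes with an annotation. The nearest were a ribonuclease/ribotoxin gene, JGI485576 (distance 0.495), an FAD-binding domain gene, JGI598869 (0.627), a subtilisin-like serine protease, JGI494195 (0.689), a di-copper centre gene, JGI609946 (0.781), and an alpha/beta-hydrolase, JGI521777 (0.795). JGI485576, for example, had 4.76 and 8.29 FPKM in SII and 250 and 251 in SIO. Among the members, JGI490397 was nearest to JGI605116, at a distance of 2.30, with 173 of all 8906 tested genes nearer. The permease JGI278143 was farthest, at 4.25, with 1896 of the 8906 nearer. With 4 libraries in 2 areas this distance mostly orders genes by the size of their fold change.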

How the data were processed

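FPKM per library had been made by the authors from paired-end reads mapped with TopHat2 2.1.0, per the submitters' processing notes, and the program that computed FPKM is not given in the sources used here. The deposited signal columns, mean scaled read counts per area, were divided by the authors by a size factor per library. The recovered reads of the SIO libraries left 35.4% of the summed SIO mean unaccounted for. Of the 10439 genes with recovered reads, 95.3% had an SIO mean above these reads and 0 had one below. The source of the excess is not given in the sources used here and was not tested. The authors' own fold changes and p-values in the same table were not used. Library columns were matched to samples by area and last number.

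Whole reads were recovered from these columns (10439 genes, 100% whole within 0.01 of a read). Genes that reached an FPKM of 1 in 2 or more of the 4 libraries were fitted on log2(FPKM + 1) with limma 3.58.1 (eBayes with a mean-variance trend, area as the only term) in R 4.3.3, checked on simulated data. P-values were adjusted over all 8906 genes. Sums used pandas 2.3.3. Alternatives were another pseudocount (0.1), no filter, a filter of FPKM 10, quantile and median-ratio scaling, the replicate number as a block, each library left out, no trend, an adjusted p under 0.05, no minimum fold change, and limma-voom on the reads.

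Named were all members, in each list of sulfur or nutrient genes the 3 called genes with the largest change and the most abundant gene, and the 5 genes nearest in pattern to JGI605116. Other list genes were named after their values were seen. The members and lists were chosen with earlier results of these data known. Descriptions were used as deposited, and no gene sequences or positions are given here. P-values from limma set the difference between the areas against the spread between libraries of pooled material, 2 per area. The spread of each gene was moderated by that of all tested genes.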

Additional observations from a re-analysis of the deposited data

How the results depend on the processing

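Of the 14 alternatives 8 could move a fold change, and in these all 6 members stayed below 0. The other 6 change only the test or the genes tested. The count of members called lower, 5, became 0 without the filter, and 3 with median-ratio scaling and with limma-voom on the recovered reads (JGI605116, JGI538558 and JGI490397 in both). Leaving out 1 library at a time gave 0 to 6 members. Over all genes, the 1084 called lower became 0 without the filter, 719 with limma-voom and 1876 at an adjusted p under 0.05, and 2 to 2133 as libraries were left out. The 914 called higher became 0 without the filter and 1386 at an adjusted p under 0.05, and 76 to 1778 as libraries were left out. Without the filter, 5305 genes and 6 members still had an unadjusted p under 0.05, and the cause of the lost calls was not tested. Quantile scaling gave 872 lower and 966 higher, and limma-voom 719 lower and 994 higher. Without an SII replicate the spread came from the SIO pair alone, and without an SIO replicate from the SII pair alone.

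The replicate numbers were not used as pairs in the main fit, because nothing in the labels ties them. The deviations of libraries of the same number correlated at 0.20 across 8906 genes. With 2 numbers this correlation cannot tell whether the libraries are paired. With the replicate block 5 members were called lower, JGI278143 losing its call (adjusted p = 0.0185) and JGI576141 gaining it (adjusted p = 0.00662), with 1105 genes lower and 845 higher. The 6 wider sulfur genes called lower were 11 with the block, 4 with median-ratio scaling and 0 without the filter. Among the wider genes, 2 fold changes that were not called changed sign without SII replicate 2. Over the libraries left out, the siroheme synthase domain gene JGI537530 ranged from −0.81 to 0.27 and the glutamate-cysteine ligase modifier subunit JGI542601 from −1.41 to 0.11. The limit on all of this is the 2 libraries per area. The 26 and 63 reads of JGI605116 in SII make its SII level the least precise of the members.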
